A study of Mus musculus with 26 samples.

Results

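Regulatory T cells (Treg) that carried a Foxp3 knockout allele were compared with Treg that carried the wild-type allele in the same reporter. The comparison used 4 of the 26 libraries of the series: Foxp3KO Treg 1 and 2, and WT Treg 5 and 6, which the labels name as the Foxp3KO control. They were chosen by their sample labels alone, and all genes were examined. Both groups were CD4+hCD2+GFP- cells from C57BL6/J mice, freshly sorted out of the spleen and lymph nodes, and their poly(A) RNA was sequenced. The Foxp3KO mice had the genotype Foxp3fs101-IRES-hCD2/Foxp3-IRES-GFP, and the control mice Foxp3WT-IRES-hCD2/Foxp3-IRES-GFP. Mice of both groups therefore carried a second Foxp3 allele marked by GFP, and the gate took the cells that displayed human CD2 (hCD2) and not GFP. The labels do not spell out what fs101 changes, give neither age nor sex, and do not tell whether each library came from its own animal. The p-values rest on the variation within the 13 groups of all 26 libraries, which may be technical.

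For comparison, the series holds a second reporter pair with the same gate, Foxp3R397W Treg 1 and 2 (Foxp3R397W-IRES-hCD2/Foxp3-IRES-GFP) against WT Treg 3 and 4. R397W is a missense allele of the same gene. Both pairs of changes were each taken over their own controls, so that no library is shared between them.

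Foxp3 is an X-linked forkhead transcription factor that is needed for Treg to develop and to suppress other T cells, and mice or people without it develop severe autoimmunity. Because 1 of the 2 X chromosomes is silenced in each female cell, a reporter placed behind a mutant allele allows cells that transcribe it to be isolated beside normal Treg. Treg in lymphoid organs include resting, central Treg (cTreg), which share genes with naive T cells, and activated, effector Treg (eTreg), which carry receptors for tissue sites and suppressor molecules.

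The Foxp3KO libraries held 33568216 and 34613707 reads in genes, and their control libraries 26321134 and 31456198. The Foxp3R397W libraries held 6036966 and 6831764 reads, and their controls 6398174 and 6117078, so the Foxp3KO pair was sequenced several times deeper. Log expression correlated across genes at 0.996 within each group of the Foxp3KO pair, and at 0.977 to 0.984 between its groups. Levels are given as CPM, the reads of a gene scaled to the same total in each library, after adjustment by TMM. Changes are log2 fold changes ± SE, Foxp3KO over WT Treg, and a gene was called at an edgeR adjusted p below 0.05. Whether groups overlapped is given for some genes as description only, since the share of all tested genes without overlap is not given.

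Foxp3 itself, on chromosome X (mm10, 7573644 to 7595245, plus strand), had 109 and 113 CPM in Foxp3KO Treg, against 348 and 326 CPM in WT Treg. The groups did not overlap, and the level fell by 1.60 ± 0.15 on the log2 scale (edgeR adjusted p = 2.0e-06). Transcripts of the marked allele can still be counted, so this level says nothing about the protein and does not check the label. Ccdc22 and Ppp1r3f overlap Foxp3 on the opposite strand. Neither was called (edgeR adjusted p = 0.18 and 0.74). In bulk RNA, fewer cells that express a gene and less RNA of it per cell cannot be told apart, and this holds for every change below.

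Most of the changes were losses. Of 12227 genes tested, 781 were called lower in Foxp3KO Treg (6.39%) and 320 higher (2.62%). At least 2-fold changes were called for 466 genes that were lower and 119 that were higher, and the median log2 change over all tested genes was 0.01. The numbers depend on the libraries. Without Foxp3KO Treg 1, 441 genes were called lower and 160 higher, and without Foxp3KO Treg 2, 281 and 137. Without WT Treg 5 the numbers were 530 and 163, and without WT Treg 6, 317 and 100. None of the 1101 genes changed sign in any of these fits.

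Among expressed genes, the deepest falls included receptors and an integrin chain of activated Treg. Klrg1, an inhibitory receptor of terminally differentiated T cells (chromosome 6, 122270596 to 122282882, minus strand), had 0.624 and 0.256 CPM in Foxp3KO Treg, against 20.7 and 22.7 CPM in WT Treg. It fell by 5.60 ± 0.50 (edgeR adjusted p = 2.0e-06). Itgae, the integrin chain CD103 that binds E-cadherin (chromosome 11, 73090583 to 73147446, plus strand), had 15.8 and 14.7 CPM in Foxp3KO Treg, against 126 and 122 CPM in WT Treg, and fell by 3.02 ± 0.19 (edgeR adjusted p = 1.7e-08). Neither gene overlapped between groups, although the few reads of Klrg1 left its Foxp3KO libraries apart from each other. Il1rl1, the IL-33 receptor ST2, had 4.01 and 5.50 CPM in Foxp3KO Treg, against 43.1 and 44.3 CPM in WT Treg (log2 change -3.20 ± 0.37, edgeR adjusted p = 2.3e-05).

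Slc7a10, which encodes a neutral amino acid transporter, had 0.394 and 0.224 CPM in Foxp3KO Treg, against 7.68 and 15.9 CPM in WT Treg. It fell by 5.21 ± 0.53 (edgeR adjusted p = 2.1e-05), although its control libraries differed from each other. Lrp3, which overlaps Slc7a10 on the opposite strand, averaged 0.0821 CPM in Foxp3KO Treg and 1.12 CPM in WT Treg and was also called lower (edgeR adjusted p = 0.0068). Without the strand setting of the counting, reads of the gene pair cannot be told apart. The same limit holds for other genes named here that overlap an opposite-strand gene, among them Noxa1, Abhd15, Ebi3, Dgka and Tnfrsf9. Noxa1, an activator subunit of NADPH oxidase, had 0.394 and 0.0960 CPM in Foxp3KO Treg, against 5.57 and 6.31 CPM in WT Treg (log2 change -4.55 ± 0.43, edgeR adjusted p = 3.9e-06). The other genes among the 12 deepest falls were Cebpa, Rin2, Bicd1, Cdcp1, Sema6d, Rapgef5 and Alox8, with log2 changes of -3.54 to -3.09. Cebpa, a myeloid transcription factor, had 2.33 and 0.992 CPM in Foxp3KO Treg, against 11.9 and 26.8 CPM in WT Treg. Its call was lost when only these 4 libraries were fitted, while the other 14 myeloid and dendritic genes tested were not called.

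The rises were led by genes of interleukin-17-producing cells and by a phosphodiesterase. Il17a (chromosome 1, 20730905 to 20734496, plus strand), the signature cytokine of Th17 cells, had 19.2 and 10.5 CPM in Foxp3KO Treg, against 0.285 and 0.236 CPM in WT Treg. It rose by 5.78 ± 0.55 (edgeR adjusted p = 2.0e-05). Ccl20, the chemokine that attracts CCR6+ cells, had 6.20 and 5.63 CPM in Foxp3KO Treg, against 0.732 and 0.236 CPM in WT Treg (log2 change 3.63 ± 0.53, edgeR adjusted p = 0.00039). Both were picked among genes whose groups did not overlap. Il17a differed between the Foxp3KO libraries.

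Pde3b, which breaks down cyclic AMP (chromosome 7, 114415281 to 114539251, plus strand), had 156 and 183 CPM in Foxp3KO Treg, against 27.4 and 30.9 CPM in WT Treg. It rose by 2.54 ± 0.16 (edgeR adjusted p = 1.7e-08). Ggt5, a gamma-glutamyl transferase, had 36.6 and 32.4 CPM in Foxp3KO Treg, against 3.78 and 3.37 CPM in WT Treg, a rise of 3.27 ± 0.19 (edgeR adjusted p = 1.2e-08). Pde3b and Ggt5 were likewise picked among genes whose groups did not overlap. Dsp, the desmosome protein desmoplakin, rose by 2.50 ± 0.32, and Lypd6b by 2.30 ± 0.24. Pdlim4, Abhd15, Ust, Prr5l and Il1r1 were also among the 12 largest rises, at log2 changes of 2.64 to 1.82. The call of Il1r1 was lost without Foxp3KO Treg 1, WT Treg 5 or WT Treg 6 (edgeR adjusted p of 0.15 to 0.20), and also without the expression filter (0.076).

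The promoters of the 2 deepest falls and 2 largest rises with a RefSeq entry (GRCm38.p6) are shown because Foxp3 is a forkhead factor and the BATF and IRF4 factors of effector Treg bind AP-1 sites. Each runs 5′ to 3′ on the gene's strand, from 250 bases before to 50 bases after the annotated start, with motif matches in capitals. The motifs searched, on both strands, were the forkhead letters TGTTTAC, the AP-1 letters TGANTCA and the AP-1 with IRF letters GAAATGA.
Slc7a10, chr7:35186135-35186434, plus strand: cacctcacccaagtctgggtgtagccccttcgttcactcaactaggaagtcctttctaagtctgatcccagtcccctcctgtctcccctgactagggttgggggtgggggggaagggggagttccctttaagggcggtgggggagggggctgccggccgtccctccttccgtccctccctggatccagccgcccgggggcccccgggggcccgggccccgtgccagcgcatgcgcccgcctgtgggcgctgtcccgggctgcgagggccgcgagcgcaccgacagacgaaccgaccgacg
Noxa1, chr2:25095156-25095455, minus strand: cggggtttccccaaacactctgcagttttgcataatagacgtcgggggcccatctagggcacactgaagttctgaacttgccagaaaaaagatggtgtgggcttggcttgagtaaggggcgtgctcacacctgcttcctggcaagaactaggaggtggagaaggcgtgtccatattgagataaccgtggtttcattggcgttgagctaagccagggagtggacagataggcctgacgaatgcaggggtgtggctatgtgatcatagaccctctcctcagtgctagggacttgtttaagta
Il17a, chr1:20730655-20730954, plus strand: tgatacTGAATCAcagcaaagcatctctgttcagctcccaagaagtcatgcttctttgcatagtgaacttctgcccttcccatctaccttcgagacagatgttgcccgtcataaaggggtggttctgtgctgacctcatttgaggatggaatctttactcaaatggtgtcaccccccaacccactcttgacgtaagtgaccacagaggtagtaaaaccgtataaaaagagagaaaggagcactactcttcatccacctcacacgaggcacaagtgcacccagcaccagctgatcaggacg
Ccl20, chr1:83116516-83116815, plus strand: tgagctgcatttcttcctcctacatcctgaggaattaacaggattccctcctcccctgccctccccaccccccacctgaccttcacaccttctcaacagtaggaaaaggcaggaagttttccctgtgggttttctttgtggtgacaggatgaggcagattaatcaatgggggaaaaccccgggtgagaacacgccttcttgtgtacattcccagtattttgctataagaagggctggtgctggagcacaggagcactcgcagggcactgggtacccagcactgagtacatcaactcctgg

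Of these 4 windows, only that of Il17a held a match, 1 to the AP-1 letters, 244 bases before the start. The absence of a match says only that these letters are not in the window. Among all 27025 promoters in the RefSeq table, 3.55% held the forkhead letters, 7.93% the AP-1 letters and 5.50% the AP-1 with IRF letters. A promoter was found for 9339 of the tested genes. There the shares were 2.48% for forkhead, 4.73% for AP-1 and 3.61% for AP-1 with IRF. Of the 579 genes called lower with a promoter, 3.11%, 6.91% and 3.97% held them, in the same order of motifs. Of the 256 called higher, 3.52%, 5.08% and 4.69% did. These shares are descriptions and were not tested.

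The genes that set Treg apart from other CD4 T cells mostly fell. In a list of 24 Treg core genes, 19 were called lower in Foxp3KO Treg and 0 higher, with a median log2 change of -1.01, beside 0.01 over all tested genes and 6.39% of them called lower. Foxp3 is itself 1 of the 19. DESeq2 likewise called 20 lower and 0 higher. The number was 12 without WT Treg 6 and 13 to 16 without each of the other 3 libraries. Nrp1, a semaphorin and VEGF co-receptor that marks thymus-derived Treg, had 120 and 116 CPM in Foxp3KO Treg, against 391 and 433 CPM in WT Treg (log2 change -1.80 ± 0.17, edgeR adjusted p = 3.3e-06). Lrrc32, which encodes GARP, the anchor of latent TGF-β on the Treg surface, had 56.6 and 69.4 CPM in Foxp3KO Treg, against 339 and 261 CPM in WT Treg. It fell by 2.25 ± 0.26 (edgeR adjusted p = 1.9e-05). Penk, an enkephalin precursor, fell by 2.0 ± 0.24, and Swap70, a guanine nucleotide exchange factor, by 1.07 ± 0.13. None of these genes overlapped between groups, but the share of all tested genes without overlap is not given.

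Others of the core list moved less or were not called. Il2ra, the IL-2 receptor alpha chain CD25, had 185 and 201 CPM in Foxp3KO Treg, against 380 and 361 CPM in WT Treg. Its fall of 0.94 ± 0.22 was called (edgeR adjusted p = 0.010), but the call was lost without each of the 4 libraries in turn. Ctla4, the inhibitory receptor that strips CD80 and CD86 from antigen-presenting cells, had 847 and 851 CPM in Foxp3KO Treg, against 1109 and 1086 CPM in WT Treg. Its groups were apart, yet its log2 change of -0.37 ± 0.19 was not called (edgeR adjusted p = 0.31). With the 4 libraries alone, a fit that called 4121 genes, the change of Ctla4 was called (edgeR adjusted p = 2.6e-05). Nt5e, the adenosine-producing CD73, was just outside the threshold at -0.58 ± 0.18 (edgeR adjusted p = 0.051). Dusp4, Ecm1 and Socs2 were the other 3 uncalled members.

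**Figure D1:**
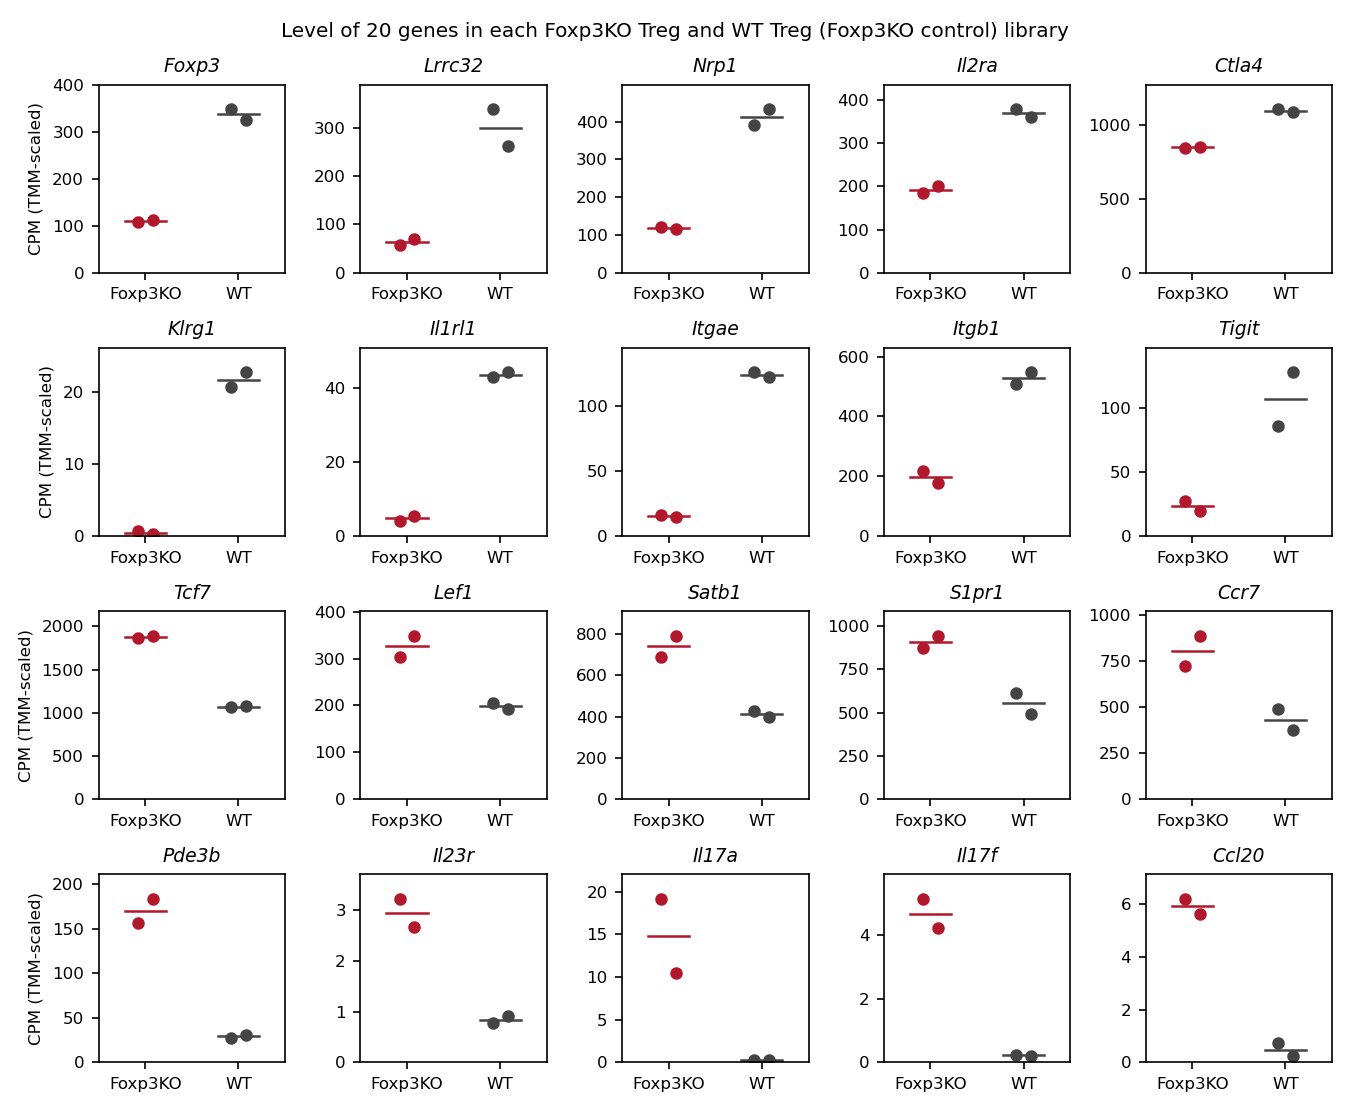
Level of 20 genes in each library (vertical axis, TMM-scaled CPM, from 0), with Foxp3KO Treg on the left of each panel and WT Treg on the right; each point is a library and each bar the mean of 2. Foxp3KO and WT libraries are apart in every panel, including Ctla4 and Ccr7, whose changes were not called. Klrg1, Il1rl1, Itgae, Pde3b, Il17a and Ccl20 were picked among genes with libraries apart. The share of all tested genes with libraries apart is not given.

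Suppressor molecules fell as well, although not all of them. Of 18 tested, 12 were called lower (66.7%, beside 6.39% of all tested genes) and 0 higher, with a median log2 change of -1.36. The number called lower was 6 without Foxp3KO Treg 2 and 8 or 9 without each of the other libraries. Ebi3, a subunit of IL-35 and IL-27, had 2.13 and 1.12 CPM in Foxp3KO Treg, against 8.54 and 9.65 CPM in WT Treg (log2 change -2.48 ± 0.27, edgeR adjusted p = 1.3e-05). Itgb8, an integrin chain that releases active TGF-β, had 8.77 and 7.94 CPM in Foxp3KO Treg, against 39.4 and 52.9 CPM in WT Treg (-2.47 ± 0.32, edgeR adjusted p = 8.3e-05). Entpd1, the ectonucleotidase CD39, had 15.6 and 13.2 CPM in Foxp3KO Treg, against 36.4 and 34.7 CPM in WT Treg (-1.30 ± 0.17, edgeR adjusted p = 6.9e-05). The message for this first enzyme of extracellular ATP breakdown was called lower. That for the next, Nt5e, was just outside the threshold (-0.58 ± 0.18, edgeR adjusted p = 0.051). The changes of these genes were not compared with each other. Tgfb1, with 208 and 202 CPM in Foxp3KO Treg and 233 and 234 CPM in WT Treg, was not called (-0.19 ± 0.15, edgeR adjusted p = 0.58).

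Most effector Treg genes fell too. In this list, 23 of 35 were called lower (65.7%, beside 6.39% of all tested genes) and 0 higher, with a median log2 change of -1.03. The number was 12 without Foxp3KO Treg 2 and 15 without WT Treg 6. Besides Klrg1, Itgae, Il1rl1 and Ebi3, the called members included Itgb1, the integrin beta 1 chain. It had 216 and 177 CPM in Foxp3KO Treg, against 508 and 548 CPM in WT Treg (-1.42 ± 0.13, edgeR adjusted p = 2.0e-06). Batf, an AP-1 family factor of effector Treg, had 55.9 and 48.6 CPM in Foxp3KO Treg, against 72.3 and 85.7 CPM in WT Treg. Its groups did not overlap, but the change of -0.60 ± 0.25 was not called (edgeR adjusted p = 0.19). Prdm1, which encodes the effector regulator Blimp-1, was also not called (-0.75 ± 0.24, edgeR adjusted p = 0.054).

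Of 20 co-inhibitory and costimulatory receptors, 9 were called lower (45%, beside 6.39% of all tested genes) and 0 higher. Tigit, an inhibitory receptor for CD155, had 27.4 and 19.2 CPM in Foxp3KO Treg, against 85.7 and 128 CPM in WT Treg (-2.20 ± 0.40, edgeR adjusted p = 0.0014), a call that was lost without Foxp3KO Treg 2 and with the 4 libraries alone. Tnfrsf9, the costimulatory receptor 4-1BB, fell by 1.31 ± 0.17, Tnfrsf4, which encodes OX40, by 1.18 ± 0.20, and Tnfrsf1b, the TNF receptor 2, by 1.08 ± 0.21. Their edgeR adjusted p-values were 5.1e-05, 0.00067 and 0.0027. Without Foxp3KO Treg 2 the number called lower was 4, and without WT Treg 6 it was 5. Among 32 chemokine receptors and integrins, 9 were called lower (28.1%) and 4 higher (12.5%, beside 2.62% of all tested genes), so that falls outnumbered rises about as they did over all genes (781 to 320). The falls included Cxcr3, a receptor for interferon-induced chemokines (-2.04 ± 0.26), Cxcr5, the receptor for follicles (-2.08 ± 0.22), and Ccr8, a receptor of tissue Treg (-1.90 ± 0.23). Each had edgeR adjusted p-values of 5.1e-05 or less. The 4 genes called higher were S1pr1, Gpr183, Itgb3 and Ccr1. The number was 2 without Foxp3KO Treg 1, Foxp3KO Treg 2 or WT Treg 6.

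Genes of naive and central T cells moved the other way. Of 21 tested, 11 were called higher and 1, Cd27, lower, with a median log2 change of 0.57, beside 2.62% of all tested genes called higher. Tcf7, which encodes the stemness factor TCF-1, had 1866 and 1894 CPM in Foxp3KO Treg, against 1065 and 1075 CPM in WT Treg (0.81 ± 0.11, edgeR adjusted p = 9.5e-05). Igfbp4, an IGF-binding protein made by naive T cells, had 489 and 424 CPM in Foxp3KO Treg, against 195 and 196 CPM in WT Treg (1.22 ± 0.17, edgeR adjusted p = 9.5e-05). Both genes were tight within groups and apart between them. Satb1, a chromatin organiser that Foxp3 is known to repress, rose by 0.84 ± 0.13, Lef1, a partner of TCF-1, by 0.72 ± 0.12, and S1pr1, the exit receptor of lymphoid organs, by 0.72 ± 0.12. Their edgeR adjusted p-values were 0.00031, 0.00049 and 0.00067. Ccr7, the lymph node homing receptor, had 726 and 890 CPM in Foxp3KO Treg, against 490 and 374 CPM in WT Treg, and was not called (0.90 ± 0.33, edgeR adjusted p = 0.10). Il7r, the IL-7 receptor, was not called either (0.50 ± 0.28, edgeR adjusted p = 0.37).

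**Figure D2:**
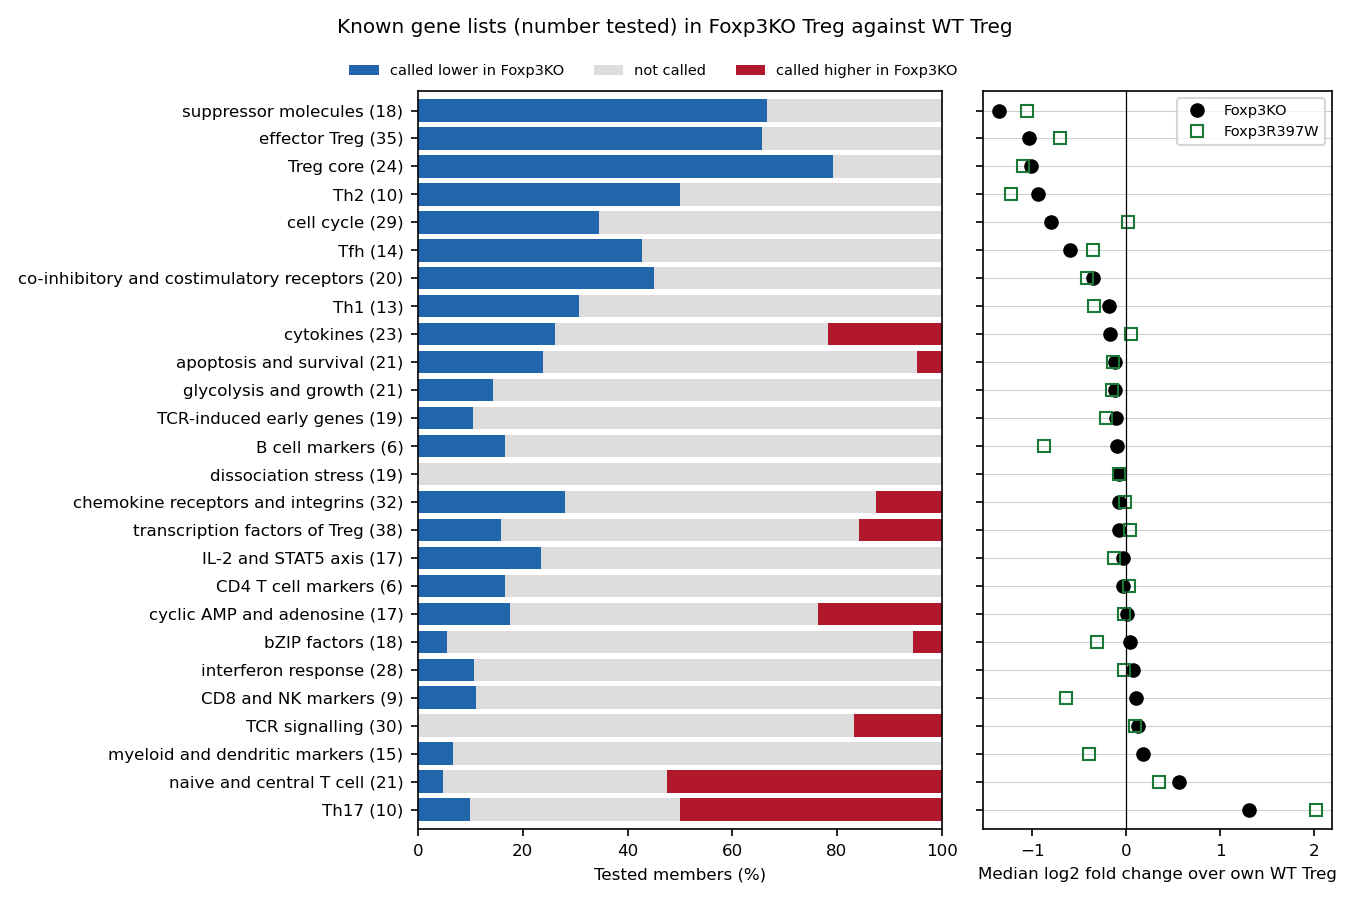
Left, share of tested members of each known list (percent, number tested in brackets) called lower (blue), not called (grey) or called higher (red) in Foxp3KO Treg. Right, median log2 change of each list in Foxp3KO (filled circles) and Foxp3R397W (open squares) Treg, each over its own WT Treg; the Treg core, effector Treg and suppressor lists lie below 0 in both, and the Th17 and the naive and central lists above 0.

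Transcription factors of Treg were called in both directions. Of 38 tested, 6 were called higher and 6 lower. Each is 15.8%, beside 2.62% of all tested genes called higher and 6.39% called lower. Besides Tcf7, Satb1 and Lef1, the genes called higher were Myb, Ikzf1 and Bach2. Myb, a regulator of progenitor and effector Treg states, had 154 and 172 CPM in Foxp3KO Treg, against 68.2 and 68.7 CPM in WT Treg (1.25 ± 0.19, edgeR adjusted p = 0.00032). Bach2, a repressor of effector programmes, had 169 and 192 CPM in Foxp3KO Treg, against 131 and 112 CPM in WT Treg (0.57 ± 0.10, edgeR adjusted p = 0.0010). The number of rises was 6 without each of the 4 libraries in turn. The falls included Rora, a nuclear receptor of Th17 cells and of tissue Treg (-1.14 ± 0.17, edgeR adjusted p = 0.00024), and Gata3, the Th2 factor (-0.65 ± 0.14, edgeR adjusted p = 0.0057). The number of falls was 3 without Foxp3KO Treg 1 or WT Treg 6. Of 18 bZIP factors, the family of BATF, only Cebpa was called lower and only Bach2 higher, each 5.56% of those tested.

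Th17 genes rose in part. Of 10 tested, 5 were called higher (50%) and 1, Rora, lower (10%), with a median log2 change of 1.30. Over all tested genes, 2.62% were called higher and 6.39% lower. The number higher was 3 without WT Treg 5 or WT Treg 6. Il17f, a close relative of Il17a, had 5.15 and 4.22 CPM in Foxp3KO Treg, against 0.244 and 0.202 CPM in WT Treg (4.33 ± 0.44, edgeR adjusted p = 7.3e-06). Its groups did not overlap. Il23r, the IL-23 receptor, rose by 1.78 ± 0.36 at a low level, with 3.22 and 2.66 CPM in Foxp3KO Treg and 0.772 and 0.911 CPM in WT Treg, and its call was lost without WT Treg 5 or WT Treg 6. Ccr6, Maf, Ahr and Il21 were not called, with log2 changes of -0.17 to 0.83.

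In the Th1, Th2 and Tfh lists, 30.8%, 50% and 42.9% of tested genes were called lower, beside 6.39% of all tested genes. No gene of these lists was called higher in the model of all libraries, beside 2.62% of all tested genes. Il18r1, a Th1 gene for an IL-18 receptor chain, was close to the threshold (0.58 ± 0.18, edgeR adjusted p = 0.054), and 1 Th1 gene was called higher with DESeq2, with its size factors in edgeR, without the expression filter and with the 4 libraries alone. That last fit also called 1 Th2 gene higher. In the Th1 list, 4 of 13 genes were called lower, and 2 without Foxp3KO Treg 2 or WT Treg 6. They were Cxcr3, Il18rap, Tbx21 and Il12rb1. Tbx21, the Th1 factor T-bet, had 6.01 and 4.19 CPM in Foxp3KO Treg, against 9.60 and 10.8 CPM in WT Treg (-1.0 ± 0.28, edgeR adjusted p = 0.028), a call that was lost without Foxp3KO Treg 2, WT Treg 5 or WT Treg 6 and without the expression filter. That of Il12rb1 was lost without Foxp3KO Treg 2 or WT Treg 6. In the Th2 list, 5 of 10 were called lower, and 2 or 3 without any 1 library. They were Il1rl1, Areg, Ccr8, Pparg and Gata3, which are also genes of tissue Treg. Areg, the tissue-repair growth factor amphiregulin, had 7.22 and 6.78 CPM in Foxp3KO Treg, against 27.7 and 28.0 CPM in WT Treg (-1.99 ± 0.48, edgeR adjusted p = 0.012). The call of Areg was lost without each of the 4 libraries, with DESeq2 and without the expression filter (adjusted p of 0.054 to 0.14). That of Pparg was lost without each library, and that of Gata3 without Foxp3KO Treg 1, Foxp3KO Treg 2 or WT Treg 5. In the list of T follicular helper (Tfh) genes, 6 of 14 were called lower, and 1 without Foxp3KO Treg 2 or WT Treg 6.

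Cytokine messages split. Of 23 tested, 5 were called higher and 6 lower, and both numbers were 3 without any 1 library. Besides Il17a and Il17f, Cd40lg, the CD40 ligand of helper T cells, had 70.9 and 72.3 CPM in Foxp3KO Treg, against 35.3 and 36.0 CPM in WT Treg (1.0 ± 0.13, edgeR adjusted p = 7.0e-05). Csf1, the macrophage growth factor, had 12.9 and 11.9 CPM in Foxp3KO Treg, against 44.3 and 47.2 CPM in WT Treg (-1.88 ± 0.22, edgeR adjusted p = 1.8e-05). Il2, the growth factor that Treg normally do not make, stayed below 1 CPM in all 4 libraries, with 0.919 and 0.576 CPM in Foxp3KO Treg, against 0.366 and 0.236 CPM in WT Treg. Its change of 1.30 ± 0.43 was not called (edgeR adjusted p = 0.082).

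Some genes of IL-2 and T cell receptor (TCR) signalling were called. In the IL-2 and STAT5 list, 4 of 17 genes were called lower (23.5%, beside 6.39% of all tested genes) and 0 higher, and 1 without any 1 library. Il2rb, the shared IL-2 and IL-15 receptor chain, had 447 and 450 CPM in Foxp3KO Treg, against 882 and 954 CPM in WT Treg (-1.03 ± 0.18, edgeR adjusted p = 0.0011). In the TCR signalling list, 5 of 30 were called higher (16.7%, beside 2.62% of all tested genes) and 0 lower, and 2 without WT Treg 6. Dgka, a brake on TCR signalling, had 1907 and 1928 CPM in Foxp3KO Treg, against 1353 and 1361 CPM in WT Treg (0.50 ± 0.09, edgeR adjusted p = 0.00088). Of 19 early genes that TCR signals induce, 2 were called lower (10.5%), Egr3 and Cd44. Both calls were lost without each of the libraries in turn.

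Further phosphodiesterase messages rose beside that of Pde3b. In the list of 17 cyclic AMP and adenosine genes, 4 were called higher (23.5%) and 3 lower (17.6%). Over all tested genes, 2.62% were called higher and 6.39% lower. All 4 genes called higher were phosphodiesterases, while Pde4a, Pde8a and Pde1b were not called. Pde4d had 200 and 217 CPM in Foxp3KO Treg, against 123 and 107 CPM in WT Treg (0.85 ± 0.17, edgeR adjusted p = 0.0022). Pde7a rose by 0.66 ± 0.15 and Pde4b by 0.54 ± 0.13, with edgeR adjusted p-values of 0.0083 and 0.014. Without WT Treg 6 the calls of all 3 were lost, without Foxp3KO Treg 2 those of Pde7a and Pde4b, and without WT Treg 5 that of Pde7a. The falls were Entpd1, Adora2a, an adenosine receptor, and Pde2a, another phosphodiesterase. The number higher was 2 without Foxp3KO Treg 2 and 1 without WT Treg 6, and the number lower was 1 without any 1 library.

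Some cell cycle genes were called lower, in numbers that depended on single libraries. Of 29 tested, 10 were called lower (34.5%, beside 6.39% of all tested genes) and 0 higher, with a median log2 change of -0.80. The number was 1 without Foxp3KO Treg 1, 3 without WT Treg 5, and 0 without Foxp3KO Treg 2 or WT Treg 6. Cdc20, an activator of the anaphase-promoting complex, had 9.03 and 7.71 CPM in Foxp3KO Treg, against 13.5 and 15.7 CPM in WT Treg (-0.80 ± 0.18, edgeR adjusted p = 0.0082). Ccnb2, a mitotic cyclin, had 7.75 and 7.26 CPM in Foxp3KO Treg, against 15.4 and 19.6 CPM in WT Treg (-1.22 ± 0.29, edgeR adjusted p = 0.0093). Mki67, the proliferation marker, had 129 and 122 CPM in Foxp3KO Treg, against 251 and 318 CPM in WT Treg, and was not called (-1.18 ± 0.44, edgeR adjusted p = 0.12). The groups did not overlap for any of these 3 genes, but the share of all tested genes without overlap is not given.

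In the apoptosis and survival list, 5 of 21 genes were called lower (23.8%, beside 6.39% of all tested genes) and 1 higher. The falls included Pmaip1, the pro-apoptotic NOXA (-1.01 ± 0.17) and Bcl2l1, which encodes Bcl-xL (-0.72 ± 0.13). Their edgeR adjusted p-values were 0.00060 and 0.0012. The gene called higher was Bcl2l11, the pro-apoptotic BIM (0.62 ± 0.12, edgeR adjusted p = 0.0025), whose call was lost without Foxp3KO Treg 2 or WT Treg 6. The number called lower was 2 without Foxp3KO Treg 1, Foxp3KO Treg 2 or WT Treg 6. Of 21 glycolysis and growth genes 3 were called lower (14.3%), and 3 of 28 interferon response genes (10.7%), both with 0 called higher. Slc2a3, the glucose transporter GLUT3, fell by 0.93 ± 0.12 (edgeR adjusted p = 5.1e-05). Both numbers were 1 without Foxp3KO Treg 1, Foxp3KO Treg 2 or WT Treg 6.

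Summed markers of other cells were well below those of CD4 T cells in all 4 libraries, and the B cell sum was lower in Foxp3KO Treg. The 10 B cell markers summed to 54.5 to 61.6 CPM in Foxp3KO Treg, against 86.2 to 89.4 CPM in WT Treg, and of 6 tested only Cd79b was called (-1.45 ± 0.20, edgeR adjusted p = 0.00011). Most of the sum was Cd74, with 37.2 and 36.4 CPM in Foxp3KO Treg, against 58.1 and 59.6 CPM in WT Treg, which was not called. Cd79a was not lower, with 4.04 and 3.71 CPM in Foxp3KO Treg, against 3.17 and 2.90 CPM in WT Treg, and H2-Aa, H2-Ab1 and H2-Eb1 overlapped between groups. Pax5 was at 0 in 1 Foxp3KO library. The 15 myeloid and dendritic markers summed to 103 to 111 CPM in Foxp3KO Treg, against 115 to 133 CPM in WT Treg. The 10 CD8 and NK markers summed to 75.7 to 77.2 CPM in Foxp3KO Treg, against 77.9 to 85.1 CPM in WT Treg, with 1 of 9 tested, Klrb1c, called lower. Of the erythroid markers, Alas2 alone was above 0 in any of the 4 libraries. Of the 19 dissociation stress genes, 0 were called in the edgeR model of all libraries or by DESeq2, with 2 at an unadjusted p under 0.05. With edgeR fitted to the 4 libraries alone 3 were called higher and 6 lower, and without the expression filter 1 lower. The 6 CD4 T cell markers summed to 3412 to 3445 CPM in Foxp3KO Treg, against 3575 to 3586 CPM in WT Treg. The part of these cells in the changes was not tested.

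The sorted wild-type populations of the series share no library with this comparison and show where the changed genes are normally expressed. Genes called and at least 2-fold higher in Treg than in other CD4 T cells, both resting (cTreg over Tnaive) and activated (eTreg over Teff), formed the Treg-high list, and those lower in both the Treg-low list. Together they held 2.69% of tested genes. Genes that differed likewise between eTreg and cTreg, 15.8% of those tested, formed the eTreg-high and cTreg-high lists. Foxp3 was left out of all 4.

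Over all tested genes, 6.39% were called lower and 2.62% higher, with a median log2 change of 0.01. Of 228 Treg-high genes, 135 (59.2%) were called lower in Foxp3KO Treg and 0 higher, with a median log2 change of -0.93. Of 101 Treg-low genes, 50 (49.5%) were called higher and 2 (1.98%) lower, with a median of 0.84. Without Foxp3KO Treg 2 the numbers were 85 Treg-high genes lower and 33 Treg-low genes higher, and without WT Treg 6 they were 91 and 28. Of 1445 eTreg-high genes, 569 (39.4%) were called lower and 49 (3.39%) higher, with a median of -0.73. The number called lower was 365 without Foxp3KO Treg 1, 223 without Foxp3KO Treg 2 and 251 without WT Treg 6. Of 485 cTreg-high genes, 101 (20.8%) were called higher and 17 (3.51%) lower, with a median of 0.35. Fewer were called higher without each of the libraries in turn.

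**Figure D3:**
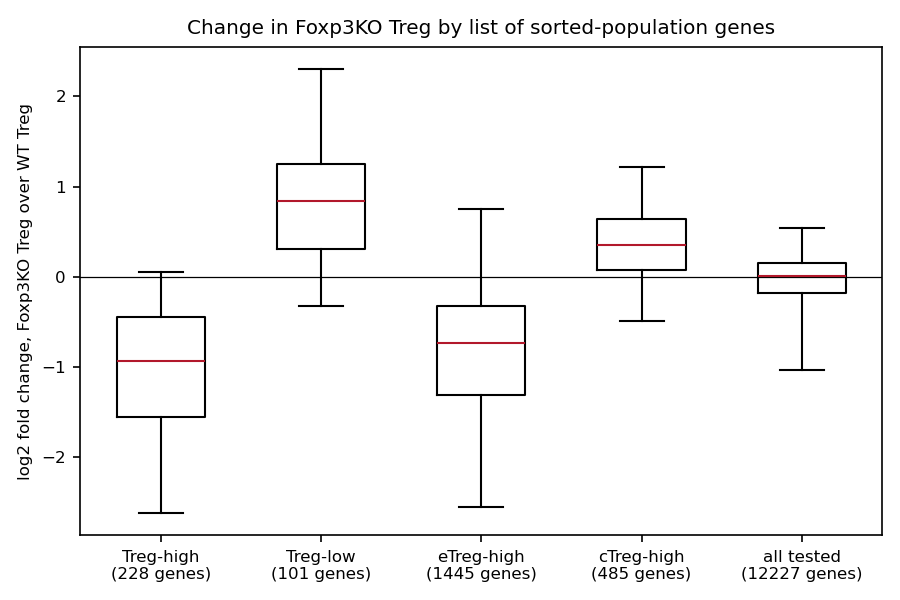
Change of the genes of each sorted-population list, Foxp3KO over WT Treg (vertical axis, log2); boxes give the quartiles, the red line the median and whiskers the 5th to 95th percentile of genes. The medians are -0.93 for Treg-high, 0.84 for Treg-low, -0.73 for eTreg-high, 0.35 for cTreg-high and 0.01 for all tested genes.

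Changes were also called for genes of 1 list that were outside another. A gene outside a list missed its call or its 2-fold size, and can still differ in that contrast. Among 93 Treg-high genes in neither the eTreg-high nor the cTreg-high list, 35 (37.6%) were called lower and 0 higher, with a median of -0.61. Their median log2 difference of eTreg over cTreg was 0.17. Among 1327 eTreg-high genes outside the Treg-high list, 477 (35.9%) were called lower and 49 (3.69%) higher, with a median of -0.69. The median log2 differences of these genes were 0.35 for cTreg over Tnaive and 0.32 for eTreg over Teff. Read from the changed genes, 72.9% of the 781 genes called lower were eTreg-high and 17.3% Treg-high, while 159 were in none of the lists. Of the 320 genes called higher, 31.6% were cTreg-high, 15.6% Treg-low and 15.3% eTreg-high, and 150 were in none. The eTreg-high list is also the longest of the 4. Of all 12227 tested genes, 1445 were eTreg-high, 485 cTreg-high, 228 Treg-high and 101 Treg-low. The eTreg-high and cTreg-high lists together held 15.8% of tested genes, and the Treg-high and Treg-low lists 2.69%.

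The changes were then set beside those of Foxp3R397W Treg. In that pair 749 genes were called (6.13%). Of the genes called lower in Foxp3KO Treg, 379 were also called lower in Foxp3R397W Treg, which is 48.5% of the Foxp3KO and 78.6% of the Foxp3R397W list. Of those called higher, 170 were shared, 53.1% of the Foxp3KO and 63.7% of the Foxp3R397W list. None was called in opposite directions. Of the 1101 genes called in Foxp3KO Treg, 1066 (96.8%) had the same sign in Foxp3R397W Treg, and across these genes, which are not independent replicates, the log2 changes correlated at 0.893. Their median absolute log2 change was 1.06 in Foxp3KO and 0.89 in Foxp3R397W Treg.

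The sizes of change with the alleles were close for some leading genes and not for others. Itgae changed by -3.02 ± 0.19 in Foxp3KO and by -3.28 ± 0.21 in Foxp3R397W Treg. Pde3b changed by 2.54 ± 0.16 in Foxp3KO and by 3.01 ± 0.18 in Foxp3R397W Treg. Il17a had 66.6 and 39.4 CPM in Foxp3R397W Treg, against 0.306 and 0.964 CPM in its WT Treg, a change of 6.37, beside 5.78 in Foxp3KO Treg. The difference between the changes, tested for each gene, was not called for any of these 3 (edgeR adjusted p = 1.0 each). Klrg1 changed by -5.60 in Foxp3KO and by -8.12 in Foxp3R397W Treg, where 1 library had 0 reads of it, and Il1rl1 by -3.20 and -4.31, in the same order of alleles. Pdlim4 changed by 2.64 and 4.57, and Rin2 by -3.39 and -2.18. None of these 4 differences was called either (edgeR adjusted p = 1.0 each), and that of Rin2 had an unadjusted p of 0.044. A difference that missed the threshold does not show equal changes. Over all tested genes, the median SE of the difference was 0.27 on the log2 scale. It was larger for some of the genes above, at 1.81 for Klrg1 and 1.13 for Il17a.

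**Figure D4:**
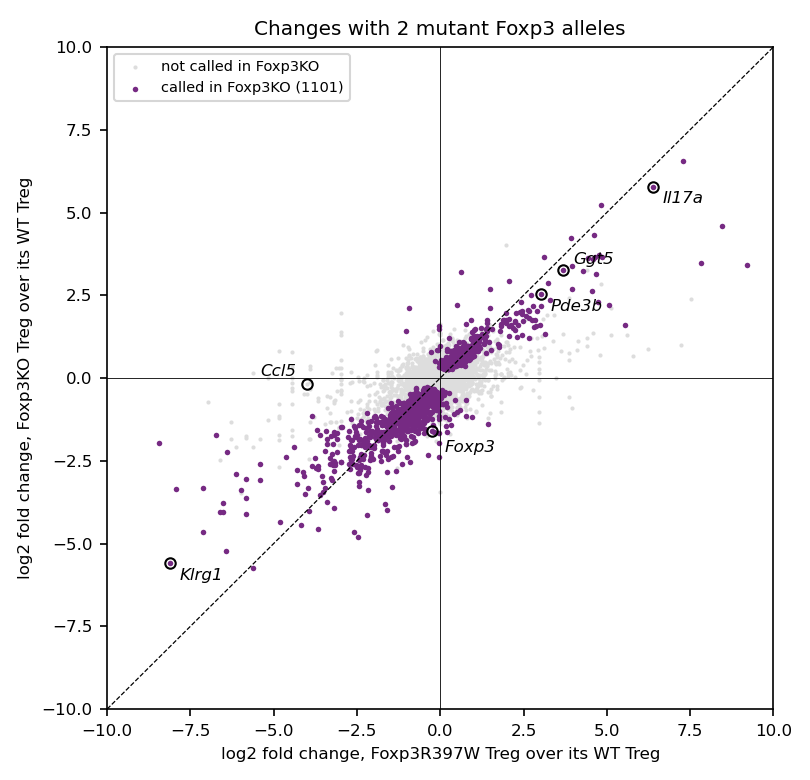
Change of each tested gene in Foxp3KO Treg (vertical axis) against its change in Foxp3R397W Treg (horizontal axis), each as log2 fold over its own WT Treg; the 1101 genes called in Foxp3KO Treg are purple and the dashed line marks equal changes. Most purple points lie in the lower left and upper right, and Foxp3 and Ccl5 lie off the line.

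The difference between the changes was called for 2 of 12227 genes (0.0164%), Foxp3 and Ccl5, with 407 at an unadjusted p under 0.05. Foxp3 had 359 and 343 CPM in Foxp3R397W Treg, against 452 and 380 CPM in its WT Treg. Its log2 change was -1.60 in Foxp3KO and -0.25 in Foxp3R397W Treg, a difference of -1.36 ± 0.21 (edgeR adjusted p = 0.023). The Foxp3KO libraries were thus below all 6 others, and the Foxp3R397W libraries just below their controls. Ccl5, a chemokine of cytotoxic and memory T cells, had 45.4 and 46.7 CPM in Foxp3KO Treg, against 57.5 and 47.6 CPM in WT Treg. It had 0.958 and 0.732 CPM in Foxp3R397W Treg, against 11.8 and 15.7 CPM in its WT Treg. The difference of 3.82 ± 0.56 was called (edgeR adjusted p = 0.023). Both calls were lost without any 1 of the 8 libraries. The CD8 and NK markers summed to 24.2 to 27.8 CPM in Foxp3R397W Treg, against 41.5 to 41.6 CPM in its WT Treg, and their part in this difference was not tested.

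Some lists had unlike medians with the 2 alleles, with no difference called for a member other than Foxp3 and Ccl5. The median of the cell cycle list was -0.80 in Foxp3KO and 0.02 in Foxp3R397W Treg, where edgeR called 0 of its genes, with 3 at an unadjusted p under 0.05. Control levels of some of its genes differed between the pairs. Mki67 averaged 284 CPM in WT Treg of the Foxp3KO pair and 77.8 CPM in those of the Foxp3R397W pair, and Ccnb2 17.5 and 5.54 CPM. The part of control levels in the unlike medians was not tested. Plk1, a mitotic kinase, changed by -0.88 ± 0.24 in Foxp3KO and by 0.21 in Foxp3R397W Treg, a difference of -1.09 ± 0.41 (edgeR adjusted p = 1.0, unadjusted p = 0.015). Th17 genes had a median of 1.30 in Foxp3KO and 2.02 in Foxp3R397W Treg. Il21, a cytokine of Tfh and Th17 cells, had 10.7 and 7.26 CPM in Foxp3KO Treg, against 3.50 and 6.55 CPM in WT Treg, and 36.3 and 10.2 CPM in Foxp3R397W Treg, against 2.29 and 1.45 CPM in its WT Treg. The difference of -2.79 ± 0.84 was not called (edgeR adjusted p = 0.99).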

How the data were processed

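Poly(A) RNA-seq read counts per gene for 26 libraries were deposited by the authors as a table of 24411 genes, aligned to mm10 with STAR 2.6.1c per the submitters' processing notes. The counter and its strand setting are not stated in these sources, and 4 columns that match no label were not used. In R 4.3.3, the edgeR 4.0.16 expression filter kept 12227 genes and removed 12184. A robust quasi-likelihood model with TMM scaling and 1 coefficient for each of 13 groups was fitted to all libraries (13 residual degrees of freedom), so the spread is shared by all groups. Contrasts were called at a Benjamini-Hochberg adjusted p below 0.05. SEs are approximate (the log2 change over the root of F). Members, gene lists and naming rules were chosen with earlier results of these data known. Named genes were Foxp3, Batf, the 12 largest called changes each way (at least 5 CPM in the higher group, libraries not overlapping, no receptor segments, mitochondrial genes or predicted models) and up to 5 called and 4 uncalled members of each list. Members outside it, named to complete a short list, were chosen after their values were seen. Lists were described by counts and medians, without set tests. Alternatives were DESeq2 1.42.0, its size factors, no filter, the contrast's own libraries, and leaving out each library. Some genes that the rule selects are not reported here. Positions are from GENCODE M21.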

Additional observations from a re-analysis of the deposited data

Results flagged for a closer look

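The change in Foxp3KO Treg differed from the change in Foxp3R397W Treg, by a test of the difference itself, for 2 genes. For Ccl5 the difference on the log2 scale was 3.82 (edgeR adjusted p = 0.023), from a change of -0.19 in Foxp3KO and -4.01 in Foxp3R397W Treg. For Foxp3 it was -1.36 (edgeR adjusted p = 0.023), from a change of -1.60 in Foxp3KO and -0.25 in Foxp3R397W Treg. The Foxp3KO pair had 26321134 to 34613707 reads a library and the Foxp3R397W pair 6036966 to 6831764. The WT Treg controls of the 2 pairs also differed in scaled levels. Gapdh averaged 712 CPM in the controls of Foxp3KO Treg and 9.49 CPM in those of Foxp3R397W Treg, and Cd3e 338 and 790 CPM. The labels name 2 library kits without saying which was used for which library. The part of depth, kit or other unlike features of the pairs in these differences was not tested.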

How the results depend on the processing

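The main limits are 2 libraries a group and a spread borrowed from the other groups. Of the 1101 genes called, 1042 stayed called with DESeq2, 1073 with its size factors in edgeR, 932 without the expression filter and 1075 with only the contrast's own libraries fitted, and 0 changed sign. The last fit called 4121 genes, 1933 higher and 2188 lower, which makes the split nearer even than in the fit reported; it estimates the spread from 4 libraries alone. Without 1 library each, 417 to 693 genes were called, 100 to 163 higher and 281 to 530 lower. With a fold of at least 2 asked as well, 585 were called, 119 higher and 466 lower. The difference between the alleles had 2 genes called (1 higher, 1 lower), against 7 with only its own libraries fitted (5 higher, 2 lower), 3 with DESeq2 (2 higher, 1 lower) and 0 without each of its 8 libraries in turn. The cause of these shifts was not tested. For 10 cell cycle genes called lower, the fit of 4 libraries called 23 and DESeq2 7. Of the 182 genes named or listed by rule, 148 to 162 kept their side of the threshold without 1 library. No paired analysis was possible because the labels number the Foxp3KO libraries 1 and 2 and their controls 5 and 6, so no number is shared.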
